A study of Homo sapiens with 6 samples.

Results

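The genes described here are 10 components and targets of the Hippo signalling pathway, taken by symbol from the 23026 genes of the spike-in normalized table. They are the coactivators YAP1 and WWTR1 (the gene of TAZ), the DNA-binding factor TEAD1, the kinase LATS2, the angiomotin-like genes AMOTL1 and AMOTL2, the LIM-domain gene AJUBA, and the target genes CYR61, CTGF and ANKRD1. Of the 10, 9 passed the filter on low expression, a mean above 10 normalized CPM (counts scaled to a common library total), and ANKRD1 did not. Messenger RNA was sequenced from T98G, a human glioblastoma cell line, infected with lentivirus carrying either a control hairpin (shControl, 3 libraries) or a hairpin against the kinase DYRK1A (shDYRK1A, 3 libraries). Both groups were selected in puromycin for 48 to 72 h, recovered without it for 24 h and were mixed with Drosophila Kc167 cells as a spike-in. The groups therefore share the infection, the selection and the fly cells, and differ in the hairpin. The labels do not say whether libraries 1A, 1B and 1C came from separate infections, so p-values measure the spread between these libraries, which may be technical.

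In the Hippo pathway, the MST kinases with SAV1 activate the LATS kinases with MOB1, which phosphorylate YAP1 and TAZ and keep them in the cytoplasm. Unphosphorylated YAP1 and TAZ enter the nucleus, bind TEAD factors and drive transcription of genes such as CTGF and CYR61. LATS2, AMOTL2 and AJUBA are pathway regulators, and LATS2 and AMOTL2 are also known as YAP targets. Messenger RNA counts do not show the phosphorylation or the location of YAP1.

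Gene counts summed to between 33708297 and 42154438 per library. DYRK1A had a mean spike-in normalized count of 2119 in shControl and 1274 in shDYRK1A, a log2 fold change of -0.73 (SE 0.15) that passed the test. The median of all genes tested was -0.40 on that scale. After TMM scaling, which sets the bulk of the genes to no change, DYRK1A was at -0.34 (SE 0.06, edgeR adjusted p = 0.000591). The spike-in value of DYRK1A fell short of the fold threshold of 0.7 when shControl 1A (-0.70), shControl 1B (-0.69) or shDYRK1A 1B (-0.61) was left out. DCAF7, which encodes a DYRK1A-binding protein, had a log2 fold change of -0.45, near the median of all genes. After TMM scaling DCAF7 was at -0.05 (edgeR adjusted p = 0.362). Of the glioma markers, VIM and CD44 were abundant. VIM, the vimentin gene, was called lower, with a log2 fold change of -0.72 (edgeR adjusted p = 1.47e-07) and of -0.31 (adjusted p = 0.000319) after TMM scaling, and CD44 was not called, at -0.32. The part of VIM's change in the results was not tested. By contrast, S100B was at 0 in all libraries and GFAP and SOX2 had mean normalized counts below those of NES and OLIG2, which were themselves under the filter. None of the 7 markers of other cell types passed the filter. The neuronal gene SYP was the most abundant of them, at a mean normalized count of 96.7 in shControl and 133 in shDYRK1A, and the group means of CDH5, RBFOX3 and MOG lay between 0 and 0.93. In bulk RNA, fewer cells of a type and less RNA per cell cannot be told apart.

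The RefSeq promoter table held 35116 windows of 250 bases before and 50 after a start, and 8 of the 10 genes matched it. TEAD1 and CYR61 did not. The 8 genes had 11 windows, with 2 each for WWTR1, AMOTL2 and AJUBA. The hexamer GGAATG, the core bound by TEAD factors, was searched on both strands, and it was present in 6 of the 11 windows, against 14% of all windows. Each of these 6 windows belonged to a different gene, and the other window of AMOTL2 and of AJUBA did not hold it. CTGF held 3 copies, at -169, -104 and -95 from the start, and 0.128% of all windows held at least 3. ANKRD1 held 2 copies, at -220 and -128, and AMOTL2, AJUBA and YAP1 held 1 each, at -69, -59 and -162. The copy of LATS2 lay at 10 bases into the transcribed part. The AP-1 site TGANTCA, searched on both strands, was found in 1 of the 11 windows, that of ANKRD1, against 7.71% of all windows. The palindrome TCTCGCGAGA, which the study ties to DYRK1A, was in 0 of the 11 windows and in 0.424% of all. These are matches of letters and not sites of binding.

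The 250 bases before the start are shown for the 2 target genes with most copies, for AMOTL2, and for YAP1 as the coactivator, with GGAATG or its reverse complement, and the AP-1 match of ANKRD1, in capitals (RefSeq, GRCh38.p14, 5′ to 3′).
CTGF, chr6:131951373-131951622, minus strand: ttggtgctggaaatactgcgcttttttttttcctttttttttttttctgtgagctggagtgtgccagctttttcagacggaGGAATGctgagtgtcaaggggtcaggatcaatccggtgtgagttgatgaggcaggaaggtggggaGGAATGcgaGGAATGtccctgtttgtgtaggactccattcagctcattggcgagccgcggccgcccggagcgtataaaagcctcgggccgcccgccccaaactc
ANKRD1, chr10:90921088-90921337, minus strand: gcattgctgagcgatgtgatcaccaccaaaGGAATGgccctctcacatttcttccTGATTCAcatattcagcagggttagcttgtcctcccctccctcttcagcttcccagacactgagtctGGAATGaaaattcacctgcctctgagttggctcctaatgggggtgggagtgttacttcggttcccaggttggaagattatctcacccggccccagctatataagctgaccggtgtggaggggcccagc
AMOTL2, chr3:134374448-134374697, minus strand: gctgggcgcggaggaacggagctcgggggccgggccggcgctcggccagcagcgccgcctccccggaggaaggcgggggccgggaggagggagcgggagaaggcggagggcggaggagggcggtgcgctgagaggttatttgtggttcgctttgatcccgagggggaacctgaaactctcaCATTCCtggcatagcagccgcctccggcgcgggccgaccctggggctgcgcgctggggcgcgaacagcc
YAP1, chr11:102110197-102110446, plus strand: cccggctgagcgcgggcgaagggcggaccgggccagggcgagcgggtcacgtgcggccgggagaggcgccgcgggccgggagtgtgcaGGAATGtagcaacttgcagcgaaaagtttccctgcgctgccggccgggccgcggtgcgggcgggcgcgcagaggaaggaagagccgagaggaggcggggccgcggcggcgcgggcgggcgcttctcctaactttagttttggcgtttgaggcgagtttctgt

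**Figure D1:**
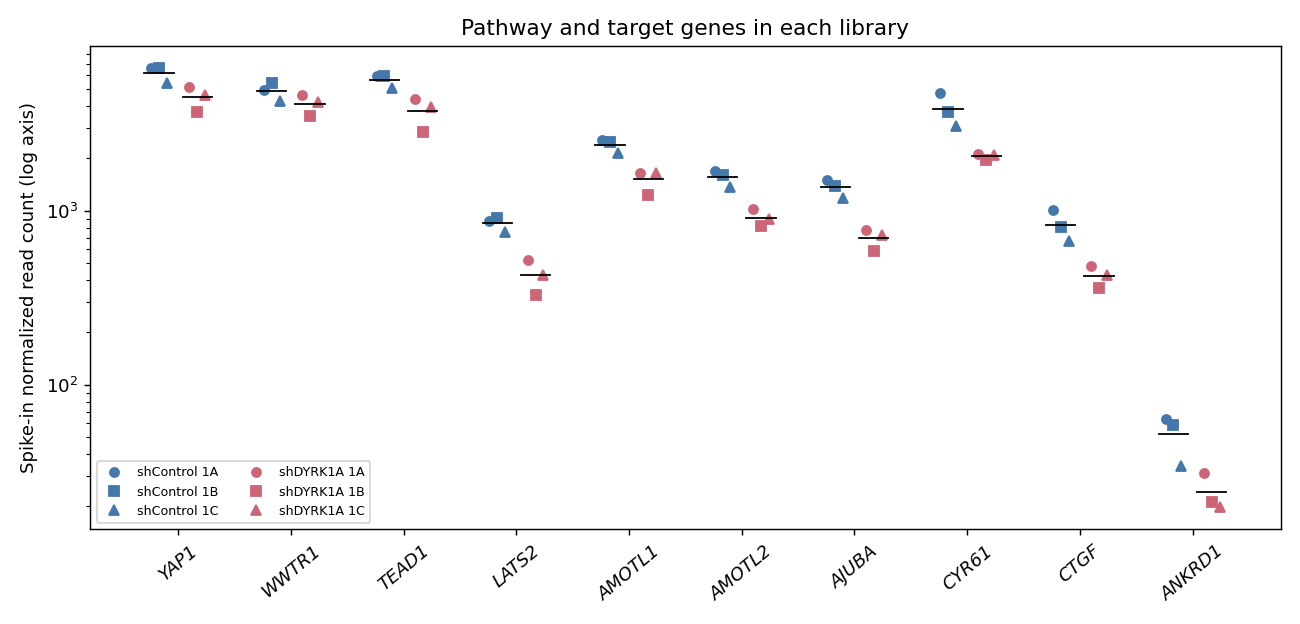
Spike-in normalized read count (log axis) of the 10 genes in each library, with symbols for libraries 1A, 1B and 1C and a line at the group mean. All 3 shDYRK1A libraries lie below all 3 shControl libraries for every gene drawn except WWTR1.

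The comparison asked how the messenger RNA of these genes differed after shDYRK1A. The targets CYR61 and CTGF and the regulators LATS2, AJUBA and AMOTL2 were called lower, at 50.2 to 58.4% of the shControl mean. The coactivators were less changed, with YAP1 at 71.9% and WWTR1 at 84.8%. Of the 9 genes tested, 5 were called lower (log2 fold change below -0.7 with an adjusted p under 0.05), a call that 14.3% of the 9697 genes tested received, and 0 were called higher, against 0.278% of all genes. At an adjusted p below 0.05 alone, 8 were lower, against 63.4% of all genes. In 8 of the 9 the groups did not overlap, with shDYRK1A lower, against 63.6% of all genes. The median log2 fold change was -0.78 over the 9 genes and -0.40 over all genes tested. The genes were chosen with earlier results of these data known, so their gaps to all genes, on either scale, are a description. The library shDYRK1A 1B, which had the fewest gene counts (33708297) and the largest share of unmapped reads (15.6%), was the lowest library for 9 of the 10 genes. Without that library, 5 genes were called lower, while calls over all genes fell from 1386 of 9697 to 920 of 9719.

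The spike-in scale moved the median of all genes by -0.40, so each change was also read after TMM scaling, which sets the bulk of the genes to no change. On that scale, with an adjusted p below 0.05 alone, 7 of the 9 genes were lower and 1, WWTR1, was higher, against 28.6% of all genes lower and 27.3% higher. In 7 the libraries did not overlap with shDYRK1A lower, against 32.5% of all genes. None passed the fold threshold of 0.7 on that scale, which 1.93% of all genes passed downward. The median of the 9 was -0.37 and that of all genes 0.00.

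YAP1 (ENSG00000137693, GRCh38 chromosome 11, 102110461 to 102233423, plus strand) encodes the transcriptional coactivator at the end of the kinase cascade. Its normalized count was 6632, 6616 and 5454 in shControl (always in the order 1A, 1B, 1C) and 5132, 3699.5 and 4619 in shDYRK1A. The groups did not overlap, and shDYRK1A 1B was lowest. The means were 6234 ± 675 and 4484 ± 726 (SD, n = 3), and the log2 fold change was -0.48 (SE 0.14, edgeR adjusted p = 0.0014), which did not reach the fold threshold. After TMM scaling it was -0.08 (SE 0.05, adjusted p = 0.239), with overlapping groups, and -0.01 without shDYRK1A 1B.

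WWTR1 (ENSG00000018408, chromosome 3, 149517235 to 149736714, minus strand) encodes TAZ, the paralog of YAP1. It had 4949.9, 5398 and 4253 normalized counts in shControl and 4632, 3506 and 4249 in shDYRK1A, and these groups overlapped. Its log2 fold change of -0.24 (SE 0.14) did not pass the test (edgeR adjusted p = 0.115). It was -0.33 and passed (adjusted p = 0.0135) without shControl 1C, and was -0.16 without shControl 1B and -0.13 without shDYRK1A 1B, neither of which passed. After TMM scaling the sign turned, to 0.16 (SE 0.05, adjusted p = 0.0178), and that call was lost without shControl 1A (0.13), shControl 1C (0.16), shDYRK1A 1A (0.15) or shDYRK1A 1C (0.13).

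TEAD1 (ENSG00000187079, chromosome 11, 12674591 to 12944483, plus strand) encodes a DNA-binding partner of both coactivators. Its normalized count was 5927, 5979 and 5110.5 in shControl and 4411, 2829 and 3969 in shDYRK1A. All shDYRK1A libraries were lower, 1B most. The log2 fold change was -0.60 (SE 0.14, edgeR adjusted p = 6.12e-05), below the fold threshold of 0.7, and was -0.21 (adjusted p = 0.0385) after TMM scaling. Without shDYRK1A 1A it was -0.74 and was called. The TMM value lost its call without shControl 1A (-0.22), 1B (-0.22) or 1C (-0.20). Without shDYRK1A 1B it kept its call (edgeR adjusted p = 0.0286) but was -0.10.

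Strand of counting was not given in the sources used here, and exons of YAP1, WWTR1, AMOTL1 and CTGF share 4.94 to 9.97% of their length with a gene on the opposite strand, whose reads cannot then be told apart.

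LATS2 (ENSG00000150457, chromosome 13, 20973032 to 21061547, minus strand) encodes a kinase that inhibits YAP1 and TAZ. It had 879, 910.1 and 754 normalized counts in shControl and 519.9, 326 and 430.0 in shDYRK1A, without overlap. The log2 fold change was -0.99 (SE 0.16, edgeR adjusted p = 1.78e-08) and was -0.60 (adjusted p = 0.000193) after TMM scaling.

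AMOTL1 (ENSG00000166025, chromosome 11, 94706431 to 94876753, plus strand) and AMOTL2 (ENSG00000114019, chromosome 3, 134355874 to 134375479, minus strand) encode junction-associated proteins that bind YAP1. AMOTL1 had 2548, 2499 and 2164 normalized counts in shControl and 1652, 1231 and 1659 in shDYRK1A. AMOTL2 had 1699.5, 1608 and 1368 in shControl and 1023, 816 and 892 in shDYRK1A. Neither gene's groups overlapped. AMOTL1 had a log2 fold change of -0.67 (SE 0.14, edgeR adjusted p = 2.5e-05), short of the threshold, but was called without shControl 1C (-0.74), shDYRK1A 1A (-0.73) or shDYRK1A 1C (-0.74). AMOTL2 had a log2 fold change of -0.78 (SE 0.15, edgeR adjusted p = 3.3e-06). After TMM scaling the values were -0.27 (adjusted p = 0.00559) for AMOTL1 and -0.37 (adjusted p = 0.00015) for AMOTL2.

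AJUBA (ENSG00000129474, chromosome 14, 22971174 to 22982642, minus strand) encodes a LIM protein that binds LATS kinases and restrains them. It had 1499.8, 1398 and 1191 normalized counts in shControl and 777, 590.2 and 728 in shDYRK1A. The shDYRK1A libraries were all lower. Its log2 fold change was -0.96 (SE 0.15, edgeR adjusted p = 9.24e-09) and -0.56 (adjusted p = 2.18e-05) after TMM scaling.

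CYR61 (CCN1, ENSG00000142871, chromosome 1, 85580761 to 85583962, plus strand) and CTGF (CCN2, ENSG00000118523, chromosome 6, 131948176 to 131951373, minus strand) encode secreted matricellular proteins. CYR61 had 4733, 3690 and 3077 normalized counts in shControl and 2134, 1962 and 2083 in shDYRK1A. The shControl libraries were spread widely, whereas the shDYRK1A libraries were close together. Its log2 fold change was -0.90 (SE 0.14, edgeR adjusted p = 6.41e-09), and -0.48 (adjusted p = 0.000779) after TMM scaling. Without shDYRK1A 1B the TMM value of CYR61 was -0.51, no smaller in size, but its adjusted p was 0.051. CTGF had 1018, 803 and 667 normalized counts in shControl and 484, 362 and 427 in shDYRK1A. The log2 fold change of CTGF was -0.96 (SE 0.16, edgeR adjusted p = 5.06e-08), and -0.56 (adjusted p = 0.000588) after TMM scaling.

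ANKRD1 (ENSG00000148677, chromosome 10, 90912096 to 90921276, minus strand) encodes a muscle ankyrin repeat protein and is a YAP target. It had 52, 52 and 35 raw counts in shControl and 33, 23 and 24 in shDYRK1A. Its mean was 0.97 normalized CPM, and it was left out of the main test. Its normalized counts were 52.1 ± 15.8 and 24.1 ± 6.2 (SD, n = 3), without overlap. In the fit without an expression filter its log2 fold change was -1.10 (SE 0.32, edgeR adjusted p = 0.00394).

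Levels between genes were compared per kilobase of exon in shControl. CYR61 was highest, at 1562 normalized counts per kb, followed by YAP1 at 990.2, WWTR1 at 578 and TEAD1 at 552. CTGF followed at 355, AMOTL2 at 260.4, AMOTL1 at 239.5, AJUBA at 228, LATS2 at 152 and ANKRD1 at 26.3. The libraries of WWTR1 and TEAD1, of AMOTL2 and AMOTL1, and of AMOTL1 and AJUBA overlapped. Compared within the same library, the first gene of each pair was the higher in every shControl library. The gaps were small, as in WWTR1 (588, 642 and 505.5) over TEAD1 (577, 582 and 497).

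**Figure D2:**
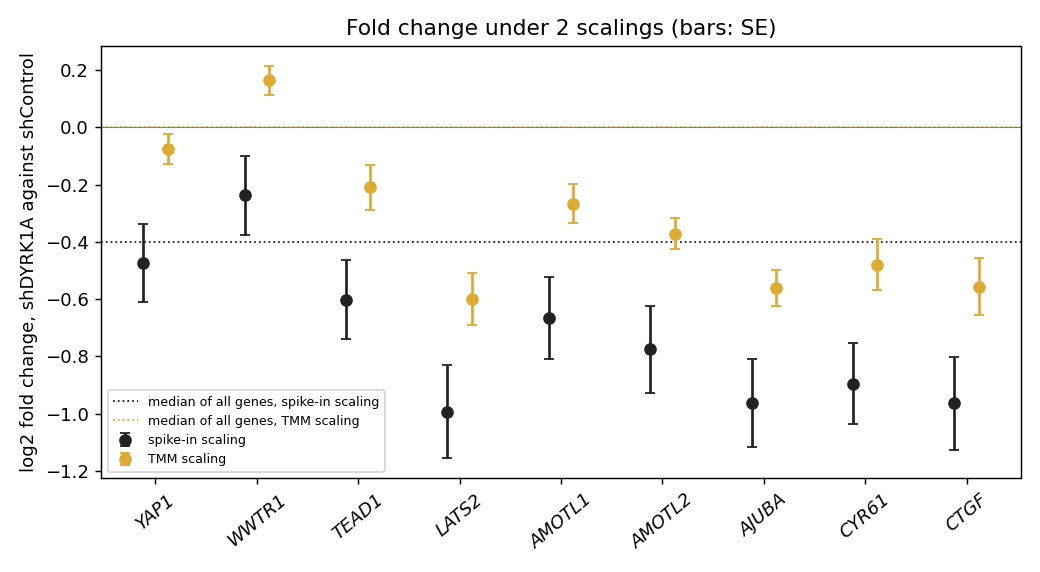
Log2 fold change (shDYRK1A against shControl) of the 9 tested genes with spike-in scaling and with TMM scaling, bars showing the SE and dotted lines the median of all genes tested. LATS2, AMOTL2, AJUBA, CYR61 and CTGF lie furthest below both medians, and WWTR1 lies above both.

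Ratios of raw counts within a library do not depend on the scaling. For 5 ratios, a two-sided exact permutation test was used, whose smallest p with 3 against 3 libraries is 0.1, so none can pass 0.05. The log2 ratio of LATS2 to LATS1 was -0.28 ± 0.06 in shControl and -1.01 ± 0.09 in shDYRK1A (SD, n = 3), a difference of -0.73 (SE 0.06, exact p = 0.1, adjusted over the 5 ratios 0.167). The ratio of WWTR1 to YAP1 was -0.36 ± 0.06 and -0.12 ± 0.04, a difference of 0.24 (SE 0.04, exact p = 0.1). Neither ratio's groups overlapped. TEAD1 to the sum of TEAD2, TEAD3 and TEAD4 differed by -0.26 (SE 0.16, exact p = 0.1), without overlap, and by -0.10 without shDYRK1A 1B. AMOTL2 to AMOTL1 differed by -0.10 (SE 0.09, exact p = 0.4), with overlap. CYR61 to CTGF differed by 0.08 (SE 0.09, exact p = 0.4), with overlap.

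**Figure D3:**
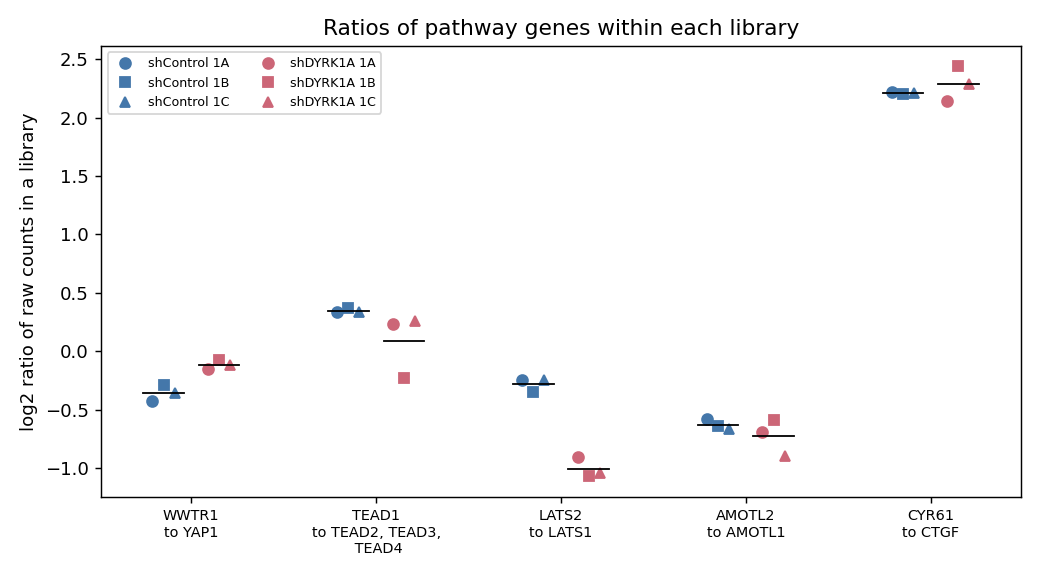
Log2 ratio of raw counts of pathway genes in each library, with a line at the group mean. The LATS2 to LATS1 ratio is lower in every shDYRK1A library, and the WWTR1 to YAP1 ratio is higher in every one.

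Other pathway genes were read in lists chosen with earlier results known. Of 18 kinase cassette and upstream genes, 16 were tested and 5 were called lower, with 0 higher, against 14.3% and 0.278% of all genes. The median log2 fold change of the 16 was -0.46, near the -0.40 of all genes. The lowest were WWC3 (-1.55), WWC2 (-0.92) and FRMD6 (-0.91), scaffolds that act upstream of LATS. The highest were STK4 (-0.20), STK3 (-0.27) and LATS1 (-0.28), none of which passed the test. After TMM scaling, at an adjusted p below 0.05 alone, 5 of the 16 were lower and 1, STK4, was higher. The shares of all genes were 28.6% and 27.3%. On that scale 1 of the 16 passed the fold threshold, WWC3, at -1.15 (edgeR adjusted p = 5.78e-08), against 1.93% of all genes downward. In the list, 3 were called lower without shControl 1A, a fit in which calls over all genes fell from 1386 of 9697 to 1064 of 9613.

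In the STRIPAK phosphatase complex, which opposes the MST kinases, 0 of 6 genes tested were called. Over all genes, 14.3% were called lower and 0.278% higher. At an adjusted p alone 4 were lower, a share near the 63.4% of all genes, with STRN (-0.65), SLMAP (-0.61) and STRN3 (-0.54) lowest. After TMM scaling 2 of the 6 were lower and 1, STRN4, was higher at an adjusted p alone. The shares of all genes were 28.6% lower and 27.3% higher. With spike-in scaling, the count of calls came to 2 without shControl 1C and to 3 without shDYRK1A 1A. Calls over all genes also rose in these fits, from 1386 lower of 9697 to 2084 of 9727 and 2098 of 9693. Among 4 tested TEAD partners, TEAD3 was called lower (-0.79), a call that 14.3% of all genes received. TEAD4 (-0.46), TEAD2 (-0.18) and VGLL4 (-0.12) were not called. VGLL4 and TEAD2 were higher after TMM scaling (0.27 and 0.23) and TEAD3 was lower (-0.38), at an adjusted p alone. Of all genes, 27.3% were higher and 28.6% lower by that rule. AMOT, LIMD1 and WTIP, paralogs of the angiomotin and AJUBA genes, were between -0.46 and -0.39, near the median of -0.40 of all genes. None was called, against 14.3% of all genes called lower. At an adjusted p alone all 3 were lower, as were 63.4% of all genes.

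Of 17 further YAP and TAZ targets, 14 were tested, 6 were called lower and 0 higher, against 14.3% and 0.278% of all genes. Their median log2 fold change was -0.62, against -0.40 over all genes. The lowest were F3, the tissue factor gene (-1.10), AXL, a receptor tyrosine kinase gene (-0.98), and DOCK5 (-0.84). The highest were IGFBP3 (-0.06), CRIM1 (-0.17) and FOXF2 (-0.24), which did not pass the test with spike-in scaling and were higher after TMM scaling (0.35, 0.23 and 0.17). After TMM scaling 7 of the 14 were lower and 3 higher at an adjusted p alone, against 28.6% and 27.3% of all genes, and 0 passed the fold threshold.

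**Figure D4:**
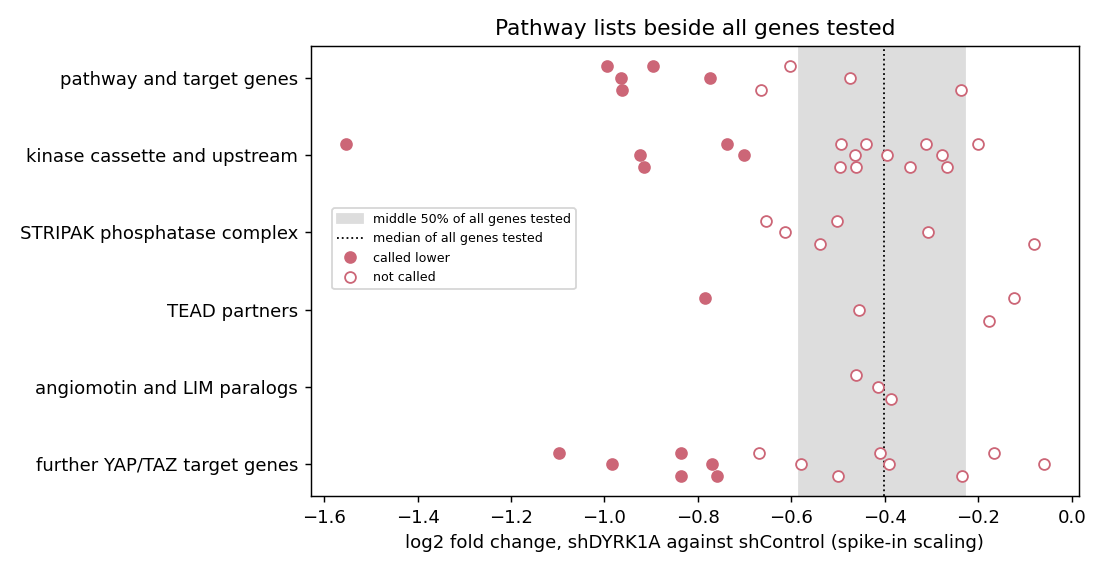
Log2 fold change with spike-in scaling of the tested genes of each list, filled where called lower, over the middle 50% of all genes tested (grey) and their median (dotted). Filled points lie below -0.7, and WWC3 is the lowest, at -1.55.

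Within 1 Mb of the YAP1 start, 9 other genes were tested. TMEM123 (-1.21) and DCUN1D5 (-1.23) were called lower, and MMP1 (2.08) and MMP3 (1.66), which encode secreted proteases, were called higher. Over all genes, 14.3% were called lower and 0.278% higher. CEP126 (-0.56), BIRC3 (-0.19), BIRC2 (-0.64), MMP13 (0.52) and DYNC2H1 (-0.56) were not called.

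Over the 6 libraries, the genes most like YAP1 by Pearson r of log2 CPM after TMM scaling were PRKAA1 (r = 0.998), NAV3 (r = 0.995) and NECTIN3 (r = 0.995), and 309 genes had r above 0.9. For CTGF they were NPC1 (r = 0.997), PEX3 (r = 0.994) and HMGB1P5 (r = 0.993), and 1255 genes had r above 0.9. Scaled to each library's own total, YAP1 had 138, 138 and 136 CPM in shControl and 140, 118 and 139 in shDYRK1A. Its r values therefore rest largely on the low library shDYRK1A 1B, and not on the split into groups. For CTGF the 6 points share the split into groups. Both sets of values are a description.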

How the data were processed

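The authors prepared stranded poly(A) libraries, and the submitters' processing notes name STAR, DESeq2 and the builds hg38 and dm3. The strand used in counting and the annotation are not given in the sources used here. The authors deposited raw read counts per gene for 58174 human genes in each of 6 libraries, and a table of normalized signal for 23026 genes, which is the count divided by 1 constant per library that the study's methods derive from fly reads. A further deposited table holds only the authors' DESeq2 comparison (fold changes and p-values) and was not used. Summary lines for unmapped (8.44 to 15.6%), multimapping (2.26 to 2.49%), feature-less (3.66 to 4.81%) and ambiguous reads (3.42 to 3.59%) name no gene and were left out. The number of per-sample columns matching no sample was 0. Gene coordinates equalled GENCODE 29 for 95.7% of the genes.

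The raw counts went into the robust quasi-likelihood test of edgeR 4.0.16 (functions glmQLFit, glmQLFTest) in R 4.3.3, with the authors' constants as scaling, over 9697 genes with a mean above 10 normalized CPM. p-values were adjusted by Benjamini-Hochberg over these genes, and calls needed a log2 fold change past 0.7 in either direction with an adjusted p under 0.05. The SE is the fold change over the square root of F. Ratios were compared by exact permutation with scipy 1.17.1. Other settings tried were DESeq2 1.42.0, scaling by TMM or by median of ratios, filterByExpr, no filter beyond 1 count, a replicate block, 1 count added to ratios, and each library left out. Calls by adjusted p alone under TMM, with each library left out, were chosen after seeing the data. The edgeR step was also tested on simulated data. The members and lists were chosen with earlier results of these data known. Named genes are the 10 members, DYRK1A, DCAF7, at most the 3 lowest and 3 highest tested genes of each list, the tested genes starting within 1 Mb of YAP1's start, and the 3 genes most like YAP1 and CTGF.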

Additional observations from a re-analysis of the deposited data

How the results depend on the processing

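The 5 genes called lower with spike-in scaling became 0 under TMM and 0 under median-of-ratios scaling, which set the bulk of genes to no change, and 8 at an adjusted p alone. With each library left out, the count ran from 5 to 7. DESeq2 gave 5, filterByExpr and no filter beyond 1 count gave 6 each, with ANKRD1 among the genes tested. WWTR1 reversed, to 0.16 under TMM scaling and 0.17 under median-of-ratios scaling; the cause beyond the scaling was not tested. Under TMM at an adjusted p alone, 7 genes were lower (6 to 7 with each library left out) and 1 was higher (0 to 1). Adding 1 count changed the direction of none of the 5 ratios, and neither did leaving out each library. Calls over all genes numbered 1386 lower and 27 higher, but 187 and 121 under TMM, 184 and 125 under median-of-ratios scaling, 2492 and 229 with filterByExpr, 2468 and 224 with no filter beyond 1 count, 2084 lower without shControl 1C, 2098 lower without shDYRK1A 1A and 920 lower without shDYRK1A 1B. Whether the replicate letters pair the libraries is not settled, and the main test treated them as unpaired. With spike-in scaling, the correlations of same-letter deviations were 0.151, 0.0729 and 0.128. Those of different letters lay between -0.0939 and -0.0143, so each library correlated best with its own letter. A fit with the replicate block called 5 genes lower and 0 higher, and 1394 lower and 28 higher over all genes. The arms of 3 libraries and the low counts of ANKRD1 limit the precision.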
